A study of Mus musculus with 6 samples.

Results

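Early presomitic mesoderm was compared with neuromesodermal progenitors in mouse stembryos at 96 h. Stembryos are aggregates of mouse embryonic stem cells that grow an elongating trunk after a pulse of Chiron, a GSK-3 inhibitor that acts as a Wnt agonist. The cells were wild type, of the line EmbryoMax 129/SVEV that the study's methods name, every aggregate had received the pulse, and no untreated aggregate entered the comparison. Whole stembryos of 2 pools had been dissociated and sequenced on the 10x platform, with 1 library each. The members were all cells of these libraries that the authors had placed in the cluster Early PSM (presomitic mesoderm) or in the clusters NMPs A and NMPs B (neuromesodermal progenitors), 7362 of the 26968 cells of the series. Early PSM held 2006 cells in replicate 1 and 601 in replicate 2. The NMP side held 2808 and 1947 cells. Stembryos up to this stage had been collected without selection for shape, and each library is a mixture of many aggregates, so that nothing can be said of single ones.

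Neuromesodermal progenitors lie at the posterior end of the growing trunk and supply the spinal cord as well as the paraxial mesoderm. They are known for co-expression of the mesodermal factor T (Brachyury) and the neural factor Sox2, which Wnt and FGF signals help to sustain. A cell that enters the mesodermal path turns on Tbx6, a T-box factor that represses Sox2, leaves the epithelium and joins the presomitic mesoderm, where a Notch-driven oscillator, the segmentation clock, precedes the formation of somites. Hox genes, in clusters A to D, are switched on in these posterior cells in the order of their positions, and the Hox code of a progenitor is passed to the tissue it forms.

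The libraries differed in depth and in the make-up of the progenitor side. Replicate 1 held 4938 cells and 117580506 UMIs (unique transcript molecules) with V3 chemistry, and replicate 2 held 2649 cells and 24303317 UMIs with V3.1 chemistry in another batch. No barcode occurred in both. Early PSM made up 40.6% of replicate 1 (exact 95% binomial interval 39.2 to 42.0) and 22.7% of replicate 2 (21.1 to 24.3), while NMPs made up 56.9% (55.5 to 58.3) and 73.5% (71.8 to 75.2). These intervals, like all intervals on shares of cells here, cover counting error only. The progenitors of replicate 1 were almost all NMPs A, with 2765 cells against 43 of NMPs B. In replicate 2 the order was the opposite, with 315 cells of NMPs A and 1632 of NMPs B. The progenitor side thus differed in make-up between the libraries. Values of NMPs A and NMPs B within replicate 2 are given for a number of genes. Within a library the sides had similar depth, with a median of 22880 UMIs per Early PSM cell against 22938.5 per NMP cell in replicate 1 and 8423 against 8847 in replicate 2. The labels do not say that the replicates were separate cultures. The p-values draw on the spread between these libraries and on spread shared across genes, and say nothing of the spread between cultures.

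The cluster names were checked against marker genes. Among the 10 genes with the highest fold over all other cells, Early PSM had Tbx6 and Dll1 of the presomitic markers, and NMPs A had T and Cyp26a1 of the progenitor markers. NMPs B had no progenitor marker among its leading genes, which were Sprr2a3, Wnt8a, Stmn2, Pou5f1, Fgfbp3, Fst, Peg10, Mt2, Gm10073 and Grsf1. Its levels of T (138 CPM, UMIs of a gene scaled to a common library total) and Sox2 (135 CPM) in replicate 2 were nevertheless close to those of NMPs A in the same library, 174 and 115 CPM. Msgn1, a defining gene of presomitic mesoderm, reached no more than 4.22 CPM in Early PSM. Of the somite markers, Pax1 and Ripply1 were at 0 in all 4 sums.

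For each library, the UMIs of all cells of a side were added up per gene, and the 4 sums were fitted with edgeR's quasi-likelihood test with the library as a block. Levels are CPM scaled by TMM factors, and differences are fitted log2 values of Early PSM minus NMPs with a standard error (SE). That SE was derived from the test statistic of the fit, which shares spread across genes. It can lie well under the spread between the 2 libraries. For Crabp1 it was 0.40, against an SD of 1.61 between the libraries. A gene was called at a Benjamini-Hochberg adjusted p under 0.05. The authors had drawn the clusters on the same transcripts, so genes that mark a cluster had to differ. The calls are therefore no independent test that the clusters differ. They draw on the spread between the libraries and on spread shared across genes, so a called gene can differ unevenly between the libraries. Of 16341 genes tested, 2958 were called, 18.1% of those tested. Early PSM had the higher level in 1308 of them (8.00% of tested genes) and the lower level in 1650 (10.1%). The direction was the same in both libraries for 2813 called genes and opposite for 9, and 136 more had no UMI on at least 1 side of a library. Differences of at least 2-fold were fitted for 1419 called genes. Only 2 libraries stand behind each value, and a fit without the block called 149 genes. In that fit none of the 25 gene lists below kept more than 4 calls in a direction, which the presomitic and mesenchymal lists reached upwards and the progenitor and epithelial lists downwards.

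The 12 called genes with the largest fitted difference in each direction, at 50 CPM or more on the higher side and at least 2-fold apart in both libraries, are shown in the plot of levels. The rule was met by 36 genes higher in Early PSM and 37 lower, and no gene with 50 CPM in both libraries was 2-fold apart in opposite directions. The rule favours genes whose sides do not overlap, so a lack of overlap only describes the values. The share of all tested genes without overlap was not counted. A lack of overlap given below for a member of a list therefore also describes its values only. Across the 2864 genes with 50 CPM on either side, the differences of the libraries correlated with r = 0.921 (a description across genes, which are not independent).

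**Figure D1:**
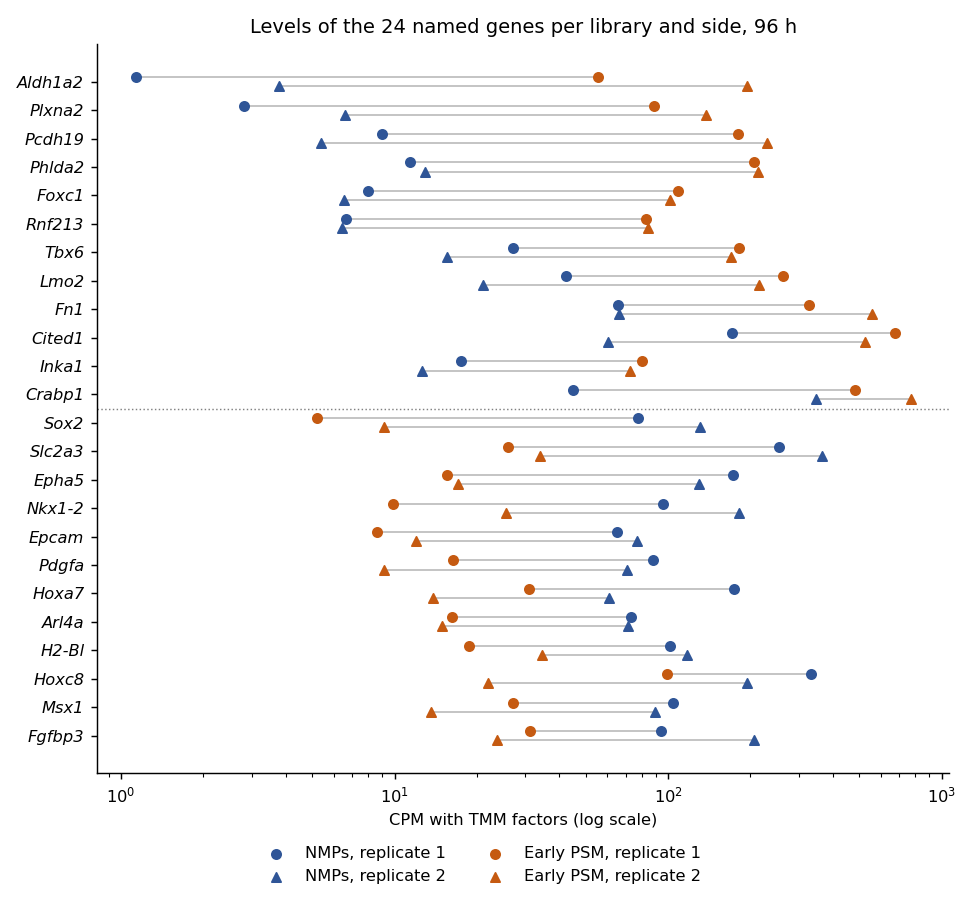
Levels (CPM with TMM factors, log scale) of the 24 genes with the largest differences in NMPs and Early PSM. Circles are replicate 1, triangles replicate 2, and a line joins the sides of a library. Both values of one side lie beyond both values of the other, which the choice of genes at least 2-fold apart in both libraries favours.

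Aldh1a2, the enzyme that makes retinoic acid, had the largest difference. It stood at 1.13 CPM in NMPs and 55.3 CPM in Early PSM of replicate 1, and at 3.77 and 194 CPM in replicate 2. Both Early PSM values lay above both NMP values, and the folds of 48.9 and 51.6 were close although the levels of the libraries were not. The fitted difference was 5.65 ± 0.09 (SE, n = 2 libraries, adjusted p = 5.98e-10). The gene lies on chromosome 9 (71215789 to 71296243, plus strand, mm10, GENCODE M21).

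Among the other genes higher in Early PSM, Plxna2, a semaphorin receptor, stood at 2.80 and 88.7 CPM in NMPs and Early PSM of replicate 1 and at 6.61 and 138 CPM in replicate 2. Pcdh19, a protocadherin, stood at 8.97 and 180 CPM and at 5.37 and 231 CPM. Phlda2, an imprinted gene known for limiting placental growth, stood at 11.4 and 206 CPM and at 13 and 213 CPM. The groups did not overlap for any of them, and the values of Phlda2 were nearly the same in both libraries. Fitted differences were 4.73 ± 0.13 for Plxna2, 4.69 ± 0.18 for Pcdh19 and 4.12 ± 0.07 for Phlda2. Foxc1, a forkhead factor of paraxial mesoderm, followed with 3.84 ± 0.08, from 7.96 to 109 CPM and from 6.50 to 101 CPM. Rnf213, an E3 ubiquitin ligase, differed by 3.67 ± 0.09. Lmo2, better known from blood progenitors, differed by 2.92 ± 0.13, and Fn1, which encodes the matrix protein fibronectin, by 2.67 ± 0.14. Inka1, an inhibitor of the kinase PAK4, differed by 2.32 ± 0.09.

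Cited1 and Crabp1 were called with less even libraries. Cited1, a transcriptional co-regulator, stood at 172 and 677 CPM in NMPs and Early PSM of replicate 1 and at 60.3 and 524 CPM in replicate 2 (2.50 ± 0.20, adjusted p = 1.34e-05). Crabp1, which binds retinoic acid in the cytoplasm, stood at 44.9 and 482 CPM in replicate 1 but at 347 and 771 CPM in replicate 2. The fold fell from 10.7 to 2.22 between the libraries (fitted 2.29 ± 0.40, adjusted p = 0.00265), and the NMP value of replicate 2 was below both Early PSM values. In replicate 2, Crabp1 was at 148 CPM in NMPs A and 387 CPM in NMPs B. The call of Crabp1 was lost in DESeq2 (adjusted p = 0.16) and without the block (adjusted p = 0.673).

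Sox2 headed the genes lower in Early PSM. It stood at 77.9 CPM in NMPs and 5.19 CPM in Early PSM of replicate 1, and at 131 and 9.17 CPM in replicate 2. Both NMP values lay well above both Early PSM values (-3.89 ± 0.08, adjusted p = 3.35e-09). Slc2a3, which encodes the glucose transporter GLUT3, stood at 254 and 26 CPM and at 365 and 33.9 CPM (-3.34 ± 0.06). Epha5, an ephrin receptor, stood at 172 and 15.5 CPM and at 129 and 17.1 CPM (-3.32 ± 0.11). Nkx1-2, a homeobox gene of the progenitor region, stood at 95.8 and 9.88 CPM and at 182 and 25.5 CPM (-3.11 ± 0.10). None of these overlapped between the sides. Epcam, an epithelial adhesion molecule, differed by -2.85 ± 0.09. Pdgfa, the ligand of the receptor Pdgfra, differed by -2.55 ± 0.10, in the opposite direction to its receptor.

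The remaining genes lower in Early PSM were Hoxa7 (-2.41 ± 0.09), the small GTPase Arl4a (-2.20 ± 0.08), H2-Bl (-2.19 ± 0.12), Hoxc8 (-2.18 ± 0.21), the homeobox gene Msx1 (-2.16 ± 0.13) and Fgfbp3, an FGF-binding protein (-2.11 ± 0.23). H2-Bl is uncertain, since it has near-identical copies among the class I histocompatibility genes. Hoxc8 and Fgfbp3 had larger folds in replicate 2 than in replicate 1. For Fgfbp3 the values were 94.2 and 31.4 CPM in replicate 1 and 206 and 23.7 CPM in replicate 2, without overlap.

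**Figure D2:**
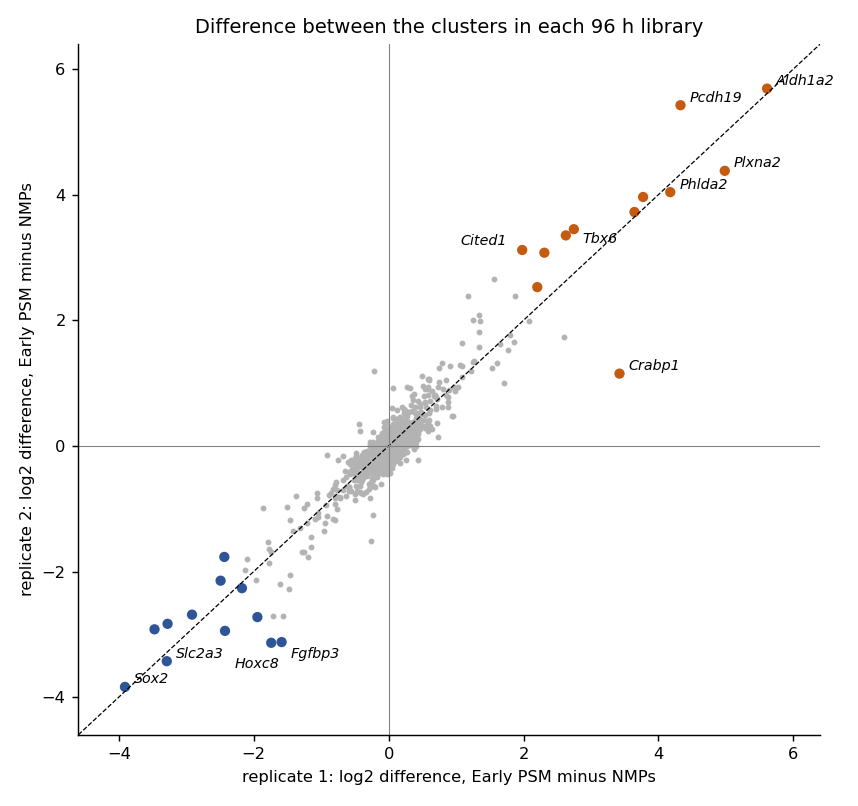
Log2 difference of Early PSM minus NMPs in replicate 1 (x axis) against replicate 2 (y axis) for the genes with at least 50 CPM on either side in both libraries. Coloured points are the 24 genes with the largest differences (orange higher and blue lower in Early PSM), the dashed line marks equal differences, and Crabp1 lies furthest below it among the genes higher in Early PSM (3.42 against 1.15).

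The presomitic and clock genes, from Notch ligands to their targets, were mostly higher in Early PSM. Of 16 genes, 13 were higher, 1 was lower and 2 were not called, with a median difference of 1.94 against -0.0014 over all genes tested. Over all genes tested 8.00% were called higher and 10.1% lower, and the counts of every list below stand against these shares. Tbx6 (chromosome 7, 126781483 to 126785560, plus strand) stood at 27.1 CPM in NMPs and 182 CPM in Early PSM of replicate 1, and at 15.5 and 170 CPM in replicate 2. The sides did not overlap (3.02 ± 0.13, adjusted p = 2.42e-07). The Notch ligand Dll1 stood at 86.8 and 317 CPM and at 41.4 and 217 CPM (2.09 ± 0.10), and Dll3, a ligand-like inhibitor in the clock, at 53.5 and 186 CPM and at 40.6 and 139 CPM (1.79 ± 0.06). The receptor Notch1 differed by 1.63 ± 0.12 and the feedback inhibitor Nrarp by 1.15 ± 0.07. Lfng, the glycosyltransferase that modifies Notch in the clock, was higher by 3.10 ± 0.13 from levels of 3.89 and 2.68 CPM in NMPs.

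The Hes genes of this list went in opposite directions. Hes7, the core repressor of the clock, was at 255 CPM in NMPs and 304 CPM in Early PSM of replicate 1 and at 221 and 326 CPM in replicate 2. Its difference was small (0.40 ± 0.07, adjusted p = 0.00227), so that the progenitors held most of the Early PSM level. Hes1 was the member that was lower, at 117 and 42.4 CPM and at 126 and 30.3 CPM (-1.66 ± 0.11). Rspo3, a secreted enhancer of Wnt signals, was at 342 and 415 CPM and at 296 and 564 CPM (0.59 ± 0.11). Hey1 (-0.26 ± 0.13) was not called.

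The later presomitic genes were low and uneven. Mesp1, a factor of early mesoderm, stood at 0.635 and 39.5 CPM in NMPs and Early PSM of replicate 1 and at 3.97 and 14.3 CPM in replicate 2 (4.25 ± 0.63, adjusted p = 0.00103). Mesp2, which sets the somite boundary, stood at 0.465 and 9.75 CPM in replicate 1, but at 0.206 and 0.183 CPM in replicate 2, from 4 and 1 UMIs. Mesp2 was called (4.13 ± 0.40), and the call rests on replicate 1 alone. Ripply2 had 48 UMIs in Early PSM of replicate 1 and 0 in replicate 2, and was not called. Msgn1 was called (3.26 ± 0.29) from 132 and 23 UMIs in Early PSM.

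Progenitor and tail bud genes were mostly lower in Early PSM. Of 18 genes, 15 were lower, 1 was higher and 2 were not called, with a median difference of -1.69. Among the transcription factors, T stood at 222 and 95.7 CPM in NMPs and Early PSM of replicate 1 and at 143 and 75.6 CPM in replicate 2. The sides did not overlap (-1.09 ± 0.07, adjusted p = 4.20e-06). Hes3, a progenitor Hes gene, was lower by -4.58 ± 0.27, from 2.73 and 26.5 CPM in NMPs to 4 and 7 UMIs in Early PSM. Sp8 (-2.0 ± 0.09) and Evx1 (-1.35 ± 0.09) were lower, as was Grhl3 (-0.82 ± 0.18), while the factor Foxb1 was not called (-0.05 ± 0.06). The Wnt target Sp5 was higher by a small amount (0.18 ± 0.05, adjusted p = 0.0398). No gene of this list was called higher without scaling factors, without the block, with DESeq2, under a limit on UMIs per cell or in G1 cells.

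The 3 Cdx genes, homeobox factors that act upstream of central Hox genes, differed from each other. Cdx4 stood at 114 and 29.1 CPM and at 62.2 and 14.1 CPM (-2.01 ± 0.08). Cdx2 stood at 349 and 158 CPM and at 334 and 123 CPM (-1.28 ± 0.07). Cdx1 was at 113 and 128 CPM in replicate 1 and at 221 and 228 CPM in replicate 2 and was not called (0.11 ± 0.05, adjusted p = 0.203).

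Signalling genes of the tail bud were lower in Early PSM as well. Fgf8, the main FGF of the tail bud, stood at 341 and 163 CPM and at 286 and 160 CPM (-0.96 ± 0.06). Fgf17 was lower by -1.82 ± 0.08, Wnt3a by -1.58 ± 0.13 and Wnt5b by -1.80 ± 0.07. Cyp26a1, which degrades retinoic acid, stood at 71.3 and 7.12 CPM and at 35.4 and 5.87 CPM (-3.19 ± 0.14), the opposite direction to Aldh1a2. In replicate 2, Cyp26a1 was at 86.5 CPM in NMPs A and 26.1 CPM in NMPs B, both above the 5.9 CPM of Early PSM.

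**Figure D3:**
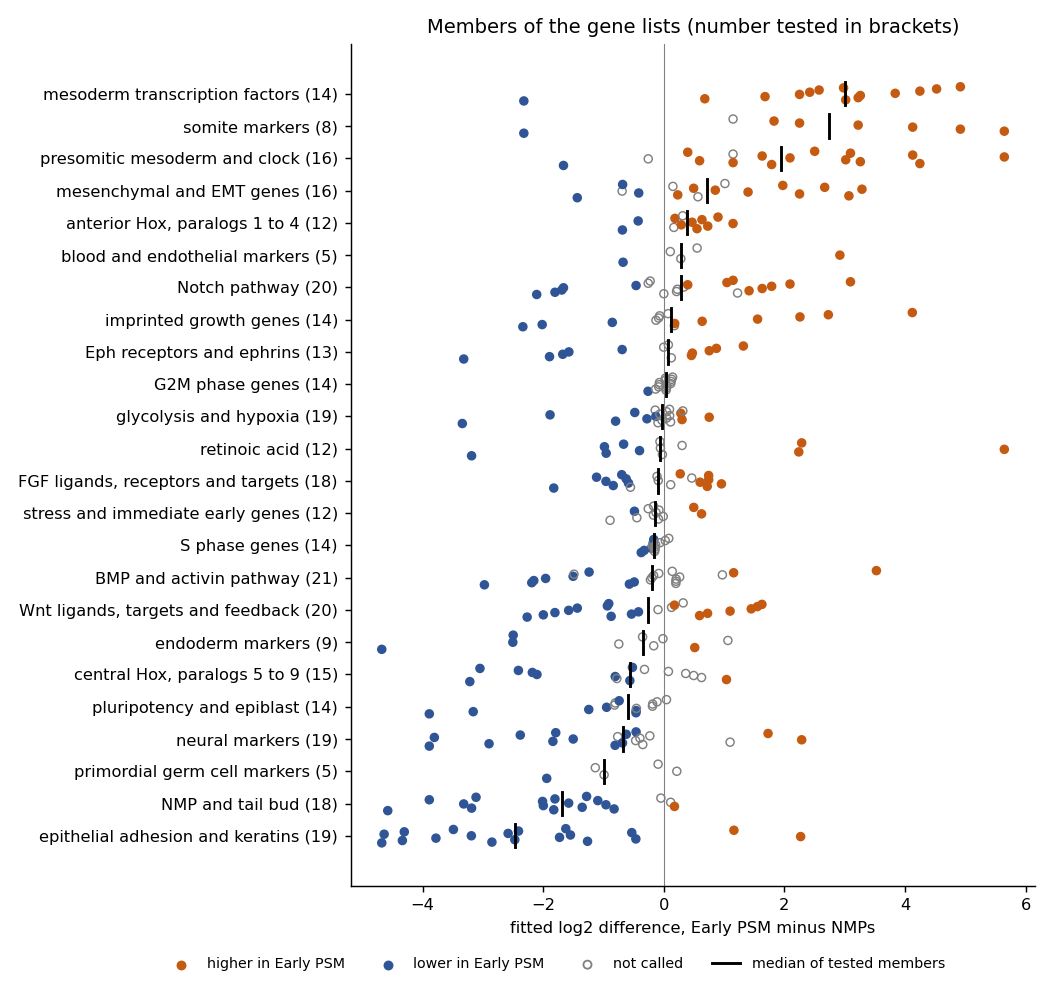
Fitted log2 difference (Early PSM minus NMPs) of each tested member of 24 gene lists, ordered by the median of tested members (black bar). Filled points passed the adjusted p threshold and open points did not. Genes of mesoderm, somite and presomitic mesoderm lie mostly to the right, genes of NMPs and of epithelia mostly to the left, and cell cycle genes near 0.

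Hox genes differed by paralog number in their medians, with exceptions in both groups. The largest differences lay in central genes of the A and C clusters. Of the 12 anterior genes (paralogs 1 to 4), 8 were higher in Early PSM, 2 were lower and 2 were not called, with a median difference of 0.39. Of the 15 central genes (paralogs 5 to 9), 1 was higher, 8 were lower and 6 were not called, with a median of -0.56. The anterior differences were small, and without the block no gene of either list was called. The number of central genes called higher was 2 with RLE factors and with DESeq2, and 3 without the filter, with NMPs A alone, under the limit on UMIs per cell and with the deeper library thinned. Hoxb1 stood at 126 and 181 CPM in NMPs and Early PSM of replicate 1 and at 137 and 181 CPM in replicate 2, without overlap (0.47 ± 0.05, adjusted p = 0.000205). Hoxd3 (1.15 ± 0.18), Hoxa2 (0.90 ± 0.11), Hoxd4 (0.73 ± 0.12), Hoxa4 (0.55 ± 0.13), Hoxb3 (0.29 ± 0.07) and Hoxb4 (0.19 ± 0.06) were also higher. Hoxd3 and Hoxd4 have overlapping transcripts and are uncertain as single genes. Hoxc4 (-0.69 ± 0.11) and Hoxa3 (-0.42 ± 0.08) were lower. Hoxb2 (0.17 ± 0.05) and Hoxd1 (0.31 ± 0.16) were not called. Without scaling factors, 6 anterior genes were called higher, and with DESeq2 5.

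The central genes lower in Early PSM came from the clusters A, B and C. Hoxa9 stood at 43.7 and 4.94 CPM in NMPs and Early PSM of replicate 1 and at 11.7 and 0.55 CPM in replicate 2, the last from 3 UMIs (-3.22 ± 0.15, adjusted p = 5.07e-07). Hoxc9 stood at 96.5 and 12.4 CPM and at 26.5 and 1.65 CPM (-3.05 ± 0.13). Within each library NMPs were clearly higher, while Early PSM of replicate 1 and NMPs of replicate 2 were closer to each other. Hoxa7 (chromosome 6, 52214491 to 52221854, minus strand) stood at 174 and 31.0 CPM and at 60.9 and 13.8 CPM. Hoxc8 (chromosome 15, 102990607 to 102994111, plus strand) stood at 332 and 99.3 CPM and at 193 and 22 CPM. Hoxc6 was at 170 and 43.9 CPM and at 58.0 and 8.99 CPM (-2.10 ± 0.11). The progenitors of replicate 2 were lower than those of replicate 1 in all of these genes.

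The B cluster differed less. Hoxb9 was at 235 and 196 CPM in replicate 1 and at 272 and 95 CPM in replicate 2 (-0.80 ± 0.21, adjusted p = 0.0223). Hoxb8 (-0.52 ± 0.10) and Hoxb7 (-0.56 ± 0.08) were lower by similar amounts. Hoxb5 (0.50 ± 0.16) and Hoxb6 (0.08 ± 0.08) were not called. The central D genes were not called either, with Hoxd8 at 0.36 ± 0.15 and Hoxd9 at 0.63 ± 0.22, and neither were Hoxc5 (-0.32 ± 0.12) and Hoxa6 (-0.78 ± 0.46). Hoxd9 was at 25.1 and 32.0 CPM in replicate 1 and at 2.74 and 10.3 CPM in replicate 2. Hoxa5 was the member that was higher (1.04 ± 0.14). Of 12 posterior genes (paralogs 10 to 13), 1 passed the filter on low counts, Hoxa10, and it was not called. The summed level of that list was at most 4.23 CPM.

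**Figure D4:**
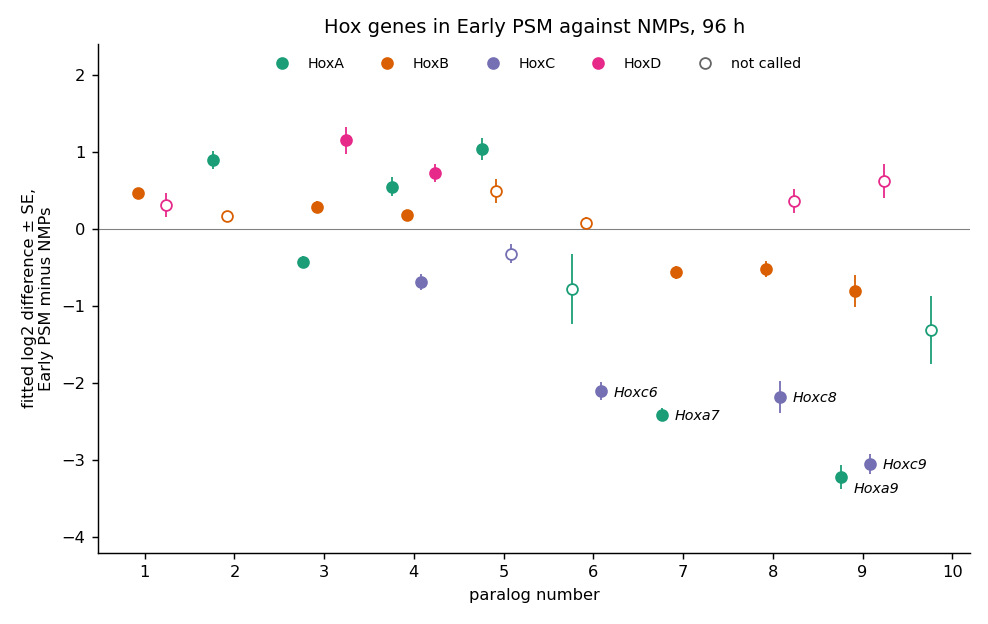
Fitted log2 difference ± SE (Early PSM minus NMPs) of the Hox genes named in the text by paralog number, coloured by cluster. Filled points passed the adjusted p threshold and open points did not. Anterior genes lie between -0.69 and 1.15, and 5 central genes of the A and C clusters lie below -2.

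Sequences upstream of the largest differences were read from RefSeq promoters (GRCm38.p6, 250 bases before the start site), which held 10 of the 12 higher and 9 of the 12 lower genes. They were searched on both strands for TCACAC (T-box), CTTTGAT (TCF and LEF), TTTATG (CDX) and TGGGAA (RBPJ), which occurred in 12.3%, 3.21%, 10.8% and 21.6% of 32851 promoters. The promoter of Aldh1a2 (chr9:71215539-71215788, plus strand), shown because the gene had the largest difference, held none of these words and had a GC content of 77.6%. The stretch upstream of Hoxa7 (chr6:52218714-52218823, minus strand) is shown because it held TTTATG at 2 positions, in capitals. It was chosen after the matches were seen, lies in an intron of longer Hoxa7 transcripts and ends before an annotated exon. Promoters of 3 of the 19 matched genes held TTTATG, namely Inka1 among the higher and Epcam and Hoxa7 among the lower genes. TGGGAA was held by 2 (Pdgfa and Arl4a), TCACAC by 1 (Epha5) and CTTTGAT by 0. A gene counted if any of its promoters held the word, while the percentages above are per promoter. A match is a run of letters and no evidence of binding.
Aldh1a2: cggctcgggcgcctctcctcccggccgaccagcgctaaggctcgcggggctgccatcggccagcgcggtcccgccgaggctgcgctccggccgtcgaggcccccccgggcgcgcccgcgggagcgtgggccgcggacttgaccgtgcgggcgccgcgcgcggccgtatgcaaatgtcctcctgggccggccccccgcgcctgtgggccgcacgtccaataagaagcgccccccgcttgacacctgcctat
Hoxa7: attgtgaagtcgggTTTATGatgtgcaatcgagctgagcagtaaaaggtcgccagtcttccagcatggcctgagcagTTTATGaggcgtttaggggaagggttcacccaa

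Signalling pathways did not move as a whole. Of 20 tested genes of the Wnt list (21 in all), 7 were higher, 10 were lower and 3 were not called. The ligands Wnt3a, Wnt5b and Wnt8a were lower. Wnt8a was at 2.65 and 2.07 CPM in replicate 1 but at 48.7 and 8.44 CPM in replicate 2, where NMPs B held 57.0 and NMPs A 5.9 CPM. Wnt5a was not called and went in opposite directions in the libraries. Of the nuclear effectors, Lef1 was higher, at 110 and 278 CPM and at 110 and 326 CPM (1.45 ± 0.06). The secreted inhibitors Dkk1 (1.63 ± 0.10) and Sfrp1 (1.55 ± 0.09) were higher, while the feedback inhibitors Notum (-0.91 ± 0.11) and Axin2 (-0.42 ± 0.08) were lower. The FGF list was split as evenly, with 6 higher, 7 lower and 5 not called of 18. Fgf3 (0.96 ± 0.07), the receptor Fgfr1 (0.75 ± 0.07) and the phosphatase Dusp6 (0.74 ± 0.07) were higher, while the targets Etv4 (-1.11 ± 0.09) and Il17rd (-0.62 ± 0.06) were lower.

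In the retinoic acid list, 3 of 12 tested genes were higher, 5 were lower and 4 were not called. Besides Aldh1a2 and Crabp1, the receptor Rarb was higher (2.24 ± 0.48) at no more than 2.39 CPM. In DESeq2 Aldh1a2 alone was called higher in this list, and without the block no gene of it was called. The receptor Rarg (-0.98 ± 0.08) and Crabp2 (-0.67 ± 0.07) were lower. In the Notch list, 8 of 20 genes were higher, 5 were lower and 7 were not called. The higher members were mainly the clock genes named above, and Mfng, a relative of Lfng, was lower (-2.11 ± 0.18). Of 21 tested BMP and activin genes, 2 were higher, 8 were lower and 11 were not called. The ligand Bmp2 was higher (3.53 ± 0.33) at 5.23 and 4.22 CPM in Early PSM. The antagonist Nog (-2.97 ± 0.35) and the target Id2 (-1.96 ± 0.15) were lower. Fst, an activin antagonist, went in opposite directions, at 9.28 and 25.6 CPM in replicate 1 and at 105 and 43.7 CPM in replicate 2, and was not called. NMPs B held 122 CPM of Fst in replicate 2, NMPs A 18.5 CPM.

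Epithelial genes were lower in Early PSM and several mesenchymal genes were higher. Of 19 epithelial genes, 17 were lower and 2 were higher, with a median of -2.47. For 3 of these calls a side had no UMI in a library. DESeq2 with the same block called 14 lower and 2 higher, and the fit without the block 4 and 1. The tight junction gene Cldn6 stood at 12.9 and 0.534 CPM in NMPs and Early PSM of replicate 1. In replicate 2 it stood at 10.3 and 0.183 CPM, the last from very few UMIs (-4.68 ± 0.24). Cdh1, which encodes E-cadherin, stood at 3.70 and 0.356 CPM and at 21.1 and 1.65 CPM (-3.49 ± 0.22). The sides did not overlap in either gene, although the progenitor level of Cdh1 differed between the libraries. In replicate 2, Cdh1 was at 24.3 CPM in NMPs B, 4.62 CPM in NMPs A and 1.66 CPM in Early PSM, and in replicate 1 it was at 3.43 CPM in NMPs A. Krt18 was lower by -2.47 ± 0.24 and Krt8 by -1.62 ± 0.16. The members that were higher were Lama1 (2.27 ± 0.13) and Lamb1 (1.16 ± 0.08), which encode laminin chains of the basement membrane.

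Of 16 tested mesenchymal genes (17 in all), 9 were higher, 3 were lower and 4 were not called, with a median of 0.71. Without the filter on low counts all 17 were tested, with 9 higher, 4 lower and a median of 0.56. Snai1, a repressor of E-cadherin, stood at 5.30 and 46.2 CPM and at 4.39 and 33.9 CPM (3.07 ± 0.11). Pdgfra, the receptor for Pdgfa, stood at 2.39 and 21.7 CPM and at 2.99 and 33.0 CPM (3.29 ± 0.14). Fn1 and its receptor subunit Itga5 (1.97 ± 0.16) were higher too. Cdh2, which encodes N-cadherin, differed little, at 113 and 123 CPM and at 109 and 141 CPM (0.23 ± 0.07, adjusted p = 0.0371), and Vim was lower (-0.41 ± 0.07). Twist1 and Snai2 were not called.

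Mesoderm transcription factors had a median of 3.0, with 13 higher and 1 lower of 14 tested (18 in all). DESeq2 with the same block called 7 of them higher, and the fit without the block 3. A gene can pass the filter on low counts through its higher side alone. Without that filter 17 were tested, with 13 higher, 1 lower and a median of 2.59. Foxc2 stood at 1.05 and 35.1 CPM and at 1.14 and 27.0 CPM (4.92 ± 0.16). Lhx1, a LIM homeobox gene, stood at 0.310 and 17.6 CPM and at 3.51 and 43.9 CPM (4.52 ± 0.34). Neither overlapped between the sides. Meox1, a gene of forming somites, was higher in both libraries but unevenly, at 0.759 and 21.4 CPM and at 5.01 and 11.2 CPM (3.22 ± 0.59). Pax3 was the member that was lower (-2.32 ± 0.29), at 4.88 CPM or less. Of the somite markers, 8 of 14 were tested, with 6 higher, 1 lower and 1 not called. DESeq2 with the same block called 2 of them higher, and the fit without the block 1. Their median was 2.74. Without the filter 12 somite markers were tested, with 6 higher, 1 lower and a median of 1.49. Aldh1a2, Foxc2 and 6 more somite markers also stand in other lists, and Mesp2 and Cxcl12 were called with opposite directions in the libraries.

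Genes of other cell types were checked on both sides. Of 19 tested neural markers, 11 were lower, 2 were higher and 6 were not called. Sox1 (-3.80 ± 0.36) and Sox3 (-2.90 ± 0.17) followed Sox2. Crabp1 was among the members that were higher. The summed level of the neural list was 468 and 710 CPM in replicate 1 and 792 and 961 CPM in replicate 2, of which Crabp1 alone gave 44.9 and 482 CPM and 347 and 771 CPM. Of 14 tested pluripotency and epiblast genes (20 in all), 7 were lower and 7 were not called. Pou5f1 was at 6.77 and 6.05 CPM in replicate 1 and at 47.1 and 27.5 CPM in replicate 2 and was not called (-0.45 ± 0.14). In replicate 2 it reached 54.5 CPM in NMPs B against 8.9 CPM in NMPs A. Its summed list stood at 610 and 391 CPM and at 891 and 564 CPM. Of the germ cell markers 5 of 9 were tested and only Kit was called (-1.94 ± 0.17), and Dppa3 and Tcl1 had at most 1 UMI.

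Endoderm markers had 1 higher and 3 lower genes of 9 tested, with summed levels between 53.6 and 69.9 CPM, and Ttr was at 0 in all sums. Blood and endothelial markers had 1 higher and 1 lower of 5 tested. Their summed level was 80.0 and 300 CPM in replicate 1 and 61.5 and 249 CPM in replicate 2, of which Lmo2 alone gave 42.4 and 262 CPM and 21 and 214 CPM. Cdh5, a defining endothelial gene, was at 0 in all sums, and Kdr and Tal1 had at most 9 UMIs.

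Glucose transporters were lower in Early PSM while most glycolytic enzymes were close. Slc2a1, which encodes GLUT1, stood at 334 and 110 CPM and at 830 and 180 CPM (-1.89 ± 0.11), and Slc2a3 is given above. Of 19 genes of glycolysis and hypoxia, 3 were higher, 6 were lower and 10 were not called. Ldha (0.28 ± 0.03) and Aldoa (0.30 ± 0.04) were slightly higher. Imprinted growth genes went both ways, with 6 higher, 3 lower and 5 not called of 14. Dlk1 (2.73 ± 0.23), H19 (2.26 ± 0.18) and Igf2 (1.56 ± 0.17) were higher besides Phlda2. Plagl1 (-2.34 ± 0.16), Mest (-2.02 ± 0.19) and Peg10 (-0.85 ± 0.13) were lower. Of 13 tested Eph receptors and ephrins, 5 were higher and 5 lower. Epha4 (1.32 ± 0.11) was higher, opposite to Epha5 and to Epha2 (-1.89 ± 0.18).

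Cell cycle and stress genes moved little in size, with median differences of -0.16 for S phase, 0.03 for G2 and M phase and -0.15 for stress genes. Of 14 genes of S phase, 4 were lower, led by Ung (-0.37 ± 0.07), and 10 were not called. The lower share was 28.6%, against 10.1% of all tested genes. The number lower ranged from 0 without the block and 1 with DESeq2 or in G1 cells to 7 without scaling factors. Of 14 genes of G2 and M phase, 1 was lower, Cenpf (-0.26 ± 0.05). By the authors' phase calls, 36.2% of Early PSM cells (34.1 to 38.3) and 31.0% of NMPs (29.3 to 32.7) were in G1 in replicate 1, and 38.3% (34.4 to 42.3) and 31.2% (29.2 to 33.3) in replicate 2. Restricted to G1 cells, the fit called 1810 genes. All 24 genes with the largest differences, which had been picked in a fit that included these cells, were among them. Of 12 stress genes, 2 were higher (16.7%), 1 was lower (8.33%) and 9 were not called, against 8.00% and 10.1% of all tested genes. DESeq2 called 0 of the stress genes higher. The median mitochondrial share per cell was 2.31% in Early PSM and 2.17% in NMPs in replicate 1, and 2.21% and 1.99% in replicate 2, and its part in the differences was not tested.

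Cells with a UMI of Tbx6 and of Sox2 were counted after each cell had been thinned to 3000 UMIs, which left out no cell. A UMI of Tbx6 was found in 38.3% of Early PSM cells (36.2 to 40.5) and 7.12% of NMPs (6.2 to 8.14) in replicate 1, and in 42.8% (38.8 to 46.8) and 3.90% (3.09 to 4.86) in replicate 2. In spinal cord, endoderm and pluripotent clusters of the same libraries it was found in 0 of 23 and 0 of 85 cells, which allows shares of up to 13% and 3.53% by a limit of 3 cells (exact upper bounds 14.8% and 4.25%). The share of NMPs in replicate 2 lies under the exact bound. Unthinned, the shares were 94.9% and 35.4% in replicate 1 and 73.7% and 10.8% in replicate 2, against 13% (3 of 23) and 2.35% (2 of 85) in the spinal cord, endoderm and pluripotent cells. Thinned to 2000 UMIs, these cells gave 2 of 23 and 0 of 85. A UMI of Sox2 was found in 1.20% of Early PSM cells (0.768 to 1.78) and 17.8% of NMPs (16.4 to 19.3) in replicate 1, and in 2.16% (1.16 to 3.67) and 31.1% (29.0 to 33.2) in replicate 2. Unthinned, these were 9.02% and 71.3%, and 6.16% and 59.9%. The shares lay far apart between the sides in both libraries. The spinal cord, endoderm and pluripotent cells include types that use Sox2 and held it in 17.4% and 35.3%, so they give no background for this gene.

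T was found in 21.9% of Early PSM cells (20.1 to 23.8) and 45.5% of NMPs (43.6 to 47.3) in replicate 1, and in 18.8% (15.8 to 22.2) and 32.4% (30.3 to 34.5) in replicate 2. Unthinned, the shares were 75.9% and 92.9%, and 43.1% and 57.6%. In the spinal cord, endoderm and pluripotent cells it was 21.7% and 18.8%, and the Early PSM share was not clearly above theirs. Unthinned, T was found in 17 of 23 and 29 of 85 of these cells, so they give no background for this gene either. T together with Sox2, the pair that defines NMPs, was found in 7.62% (6.67 to 8.67) and 8.12% (6.94 to 9.42) of NMPs and in 0.548% (0.274 to 0.979) and 0.666% (0.182 to 1.70) of Early PSM cells. In the spinal cord, endoderm and pluripotent cells the pair was found in 2 of 23 and 3 of 85 cells (8.7%, interval 1.07 to 28, and 3.53%, interval 0.734 to 9.97), and these intervals overlap those of NMPs in both libraries. Unthinned, the pair was found in 65.8% and 32.3% of NMPs, 7.43% and 3.83% of Early PSM cells, and 11 of 23 and 17 of 85 of the other cells. Tbx6 together with Sox2 was found, after thinning, in 0.890% and 0.616% of NMPs and 0.150% and 1.16% of Early PSM cells, and unthinned in 22.2% and 4.47% of NMPs and 8.37% and 4.99% of Early PSM cells. At this depth a cell without a UMI may still hold the transcript.

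**Figure D5:**
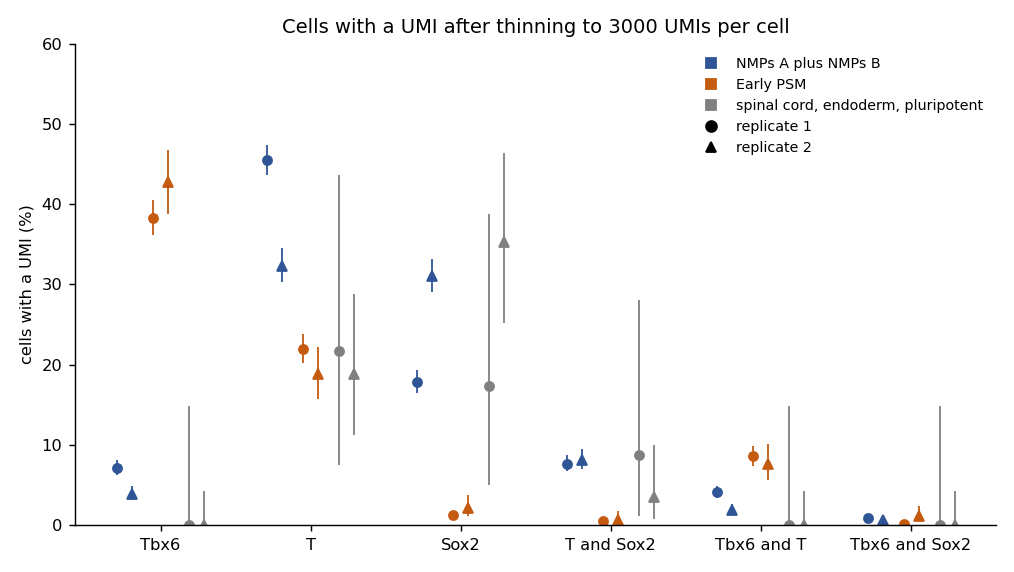
Percent of cells with a UMI of Tbx6, T, Sox2 or a pair of them after thinning each cell to 3000 UMIs, per library and side, with exact 95% binomial intervals (bars). Early PSM has the higher share for Tbx6 and NMPs the higher share for T, Sox2 and the pair of both. Grey marks 23 and 85 cells of spinal cord, endoderm and pluripotent clusters.

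The clusters NMPs A and NMPs B were set side by side in replicate 2, where both held over 50 cells. Hoxc8 was at 285 CPM in NMPs A and 178 CPM in NMPs B against 22.1 CPM in Early PSM. Hoxa7 was at 82.9 and 57.2 CPM against 13.8 CPM, and Sox2 at 115 and 135 CPM against 9.2 CPM. For these 3 genes both progenitor clusters lay on the same side of Early PSM. With NMPs B alone in replicate 2, all 24 genes with the largest differences kept their direction, and 11 of them moved from the fitted value by more than the SD between the libraries. The kept direction is no separate test. These genes had been chosen for the same direction in both libraries, and NMPs B made up 1632 of the 1947 NMP cells there. With NMPs A alone as the progenitor side, 3248 genes were called, 2681 of them also called with both clusters. All 24 genes with the largest differences were among the calls, but replicate 1 hardly changed, with 2765 of its 2808 NMP cells kept. At 120 h no library held 50 cells on both sides, the nearest being the posterior part with 58 Early PSM cells and 49 cells of NMPs A and B, so no comparison was made there.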

How the data were processed

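UMI counts of 25595 genes in 26968 cells were deposited as 1 table. Per the labels, the authors aligned reads to mm10 with Cell Ranger 6.0 and filtered and annotated cells with Seurat 4.0.2. According to the methods, the authors removed low-quality cells and doublets by limits on the UMI total and the mitochondrial share, and scaled the data for that share and the cell cycle before clustering. No doublet caller was run here. The deposited cell annotation gave the mitochondrial share as a percent, the phase and the cluster.

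Counts were summed per library and side and fitted with edgeR 4.0.16 in R 4.3.3 (TMM, filterByExpr, quasi-likelihood test, Benjamini-Hochberg adjustment), with the library as a block. The 4 sums left 1 residual degree of freedom, so the test leaned on the spread shared across genes (prior degrees of freedom 8.78). It was tested on simulated data in which all genes shared the same spread and both libraries had the same true differences. Those data held no unevenness between libraries and so cannot show how the test handles it. Both sides of a pair come from the same library, which pairs them. Genes were named by a rule (the 12 largest fitted differences in each direction among called genes with at least 50 CPM on the higher side and at least 2-fold apart in both libraries), with the members of 25 lists. Members and lists were chosen with earlier results of these data known. Some members are counted in their lists but not reported here by name. Promoters are from RefSeq. Alternatives were no block, other scaling, DESeq2 1.42.0, no filter, NMPs A alone, a limit of 1.5 times the mean UMI count of the library, G1 cells, the deeper library thinned, each library alone and other CPM minimums.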

Additional observations from a re-analysis of the deposited data

How the results depend on the processing

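Without the replicate block, which ignores that both sides come from the same library, 149 genes were called, 85 higher and 64 lower in Early PSM, and 1835 genes had an unadjusted p under 0.05. DESeq2 called 1270, 598 higher and 672 lower, and G1 cells alone gave 1810, 795 and 1015, with fewer cells and fewer genes tested. The other alternatives gave between 2505 and 3283 calls. All 24 genes with the largest differences kept their direction under every alternative run. The rule had picked them for large differences of the same direction in these libraries, so that is no separate test. Of these genes, 11 moved by more than the SD between libraries with NMPs B alone in replicate 2, and 7 did without replicate 1. Without the block 9 of them lost the call, namely Aldh1a2, Cited1, Crabp1, Nkx1-2, Hoxa7, H2-Bl, Hoxc8, Msx1 and Fgfbp3, and with DESeq2 Crabp1 did. Differences of at least 2-fold numbered 38 higher and 44 lower at 50 CPM, 148 and 160 at 10 CPM, and 19 and 18 at 100 CPM. With 1 library left out there is no test, and the counts at 50 CPM were 41 to 57 higher and 55 lower. NMPs B alone could be set against Early PSM in replicate 2 only. The scaling alternatives moved the median of all genes from -0.0014 to -0.044 without factors and 0.0071 with RLE. Depth limits the genes of low level in replicate 2, whose Early PSM sum holds 5237023 UMIs.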
